A study of Mus musculus with 28 samples.

Results

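The genes described here encode 8 receptor tyrosine kinases of mesodermal and vascular cells: *Pdgfra*, *Kit*, *Kdr*, *Flt1*, *Flt4*, *Pdgfrb*, *Tek* and *Tie1*. They were chosen by name, and all 8 were found among the 22380 protein-coding gene records of the GENCODE annotation of the mouse genome build mm9. *Pdgfra*, *Kit* and *Kdr* lie side by side on chromosome 5 and were also taken as a single locus of 926 kb.

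Receptor tyrosine kinases sit in the cell membrane, pair up when a growth factor binds outside the cell, and phosphorylate each other and their partners inside it. *Pdgfra* and *Pdgfrb* encode the receptors for platelet-derived growth factors, *Kit* the receptor for stem cell factor, *Kdr* (Flk-1), *Flt1* and *Flt4* the receptors for vascular endothelial growth factors, *Tek* the angiopoietin receptor and *Tie1* its partner. Kdr and Pdgfra mark early mesoderm, including the precursors of heart and blood vessels, whereas Flt4, Tek and Tie1 are best known from endothelium.

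The samples were cultures of Brg1f/f; Actin-CreER mouse embryonic stem cells, in which both alleles of *Brg1* (the ATPase of the BAF chromatin remodelling complex) are floxed and a Cre recombinase fused to the estrogen receptor is expressed constitutively. Cells grew as embryoid bodies, received 200 nM 4-hydroxytamoxifen (4-OHT, Brg1-deleted) or its solvent tetrahydrofuran alone (control) on day 2, and were harvested on day 4 after 40 h with VEGF, Activin A and BMP4. ChIP-seq was made for H3K27ac (a mark of active promoters and enhancers) in 2 control and 2 4-OHT replicates, for H3K27me3 (the mark laid down by Polycomb repressive complex 2) in 3 and 3, and for Suz12 (a subunit of that complex) in 2 and 2. The 3 anti-FLAG replicates carry the same genotype in the labels and normal Brg1 levels, whereas the study's text names a Brg1-FLAG line for them, in which *Brg1* carries a FLAG tag at its own locus. All cells came from cultured lines without sorting, so fewer cells with a mark and less of the mark per cell cannot be told apart. No list measures Brg1 itself after 4-OHT.

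Each replicate is a list of enriched regions with a start and an end and no score or read count, so depth is unknown and the only quantities are the number of regions and the bases they cover. H3K27ac lists held 32161 to 41062 regions, H3K27me3 lists 6787 to 16959 and Suz12 lists 2913 to 4016. FLAG replicates 1 and 2 held 8021 and 8257 regions, but FLAG replicate 3 held only 192, none of them in the 926-kb locus. Covered H3K27me3 length was smaller after 4-OHT than in the same-numbered control for every replicate, at 4.74, 8.99 and 7.62 Mb in replicates 1 to 3. At the start sites of 6 mesoderm marker genes, H3K27ac was listed in every control replicate for 6, whereas it was listed in no replicate for any of 4 endothelial markers or of 2 neural markers. *Sox1*, also on the neural list, was not matched in the annotation and was left out. Summed H3K27ac of the mesoderm markers was 23116 to 29840 bp in control and 17743 to 24940 bp after 4-OHT. By the rule given below, 2 of 6 were lower (12.6% of the 12031 protein-coding genes with the mark). Of 3 mural cell markers, *Rgs5* gave nearly all of the summed H3K27ac, 3325 to 4325 bp in control against 1150 to 2350 bp. A single cardiomyocyte marker of 3 summed to 1050 to 1450 bp against 0 bp and a single endoderm marker of 3 to 1300 to 1850 bp against 0 to 325 bp. The 2 of 4 blood markers with H3K27ac summed to 875 to 1275 bp against 1550 to 1725 bp. Both were higher by the same rule (39.8% of all genes with the mark). At *Klf1* the difference was small, with 650 and 625 bp in control against 675 and 675 bp after 4-OHT. Of 4 pluripotency markers, 3 had H3K27ac in every control replicate and 4 in every 4-OHT replicate. The summed H3K27ac of these was 12444 to 13844 bp in control and 15221 to 15271 bp after 4-OHT. Among them *Sox2* was higher (3150 and 1850 bp against 4577 and 4702 bp), *Nanog* was lower (4069 and 4344 bp against 3219 and 3619 bp), and the others overlapped. The part of such shifts in the differences below was not tested.

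In these lists *Pdgfra* and *Pdgfrb* had H3K27ac within 5 kb of the transcriptional start site (TSS), and *Kdr* and *Flt1* had it only at distal positions. H3K27me3 and Suz12 lay at the TSS of *Pdgfra*, *Kdr* and *Flt1*. *Kit*, *Flt4*, *Tek* and *Tie1* had little or nothing at the TSS. After 4-OHT, H3K27ac covered fewer bases around *Kdr*, *Pdgfrb* and *Flt1* in both replicates than in either control replicate.

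A gene was called lower or higher when every 4-OHT replicate lay below or above every control replicate, and each count is set beside the share of all protein-coding genes with the mark that met the same rule. With 2 replicates a condition the smallest 2-sided p of an exact permutation test is 0.333, and with 3 it is 0.1, so no single gene could reach significance. Within 5 kb of the TSS, H3K27ac was listed at 2 of the 8 genes, of which 1 was lower (12.6% of 12031 genes) and 0 were higher (39.8%). Over the gene body and 50 kb on each side, 6 genes had H3K27ac, 3 were lower (21.9% of 17977 genes) and 0 were higher (38.8%). The median log2 ratio of covered bases over these 6 genes was -0.73 and that over all genes with the mark was 0.12. H3K27me3 was listed near the TSS of 6 genes, of which 0 were lower by this rule (12% of 4204 genes). Since same-numbered H3K27me3 replicates varied together, pairs were also compared by the replicate number as a block, and 2 genes (*Kdr* and *Flt1*) were lower in every same-numbered pair (44.1%). For the gene body with 50 kb on each side the counts were 0 lower (15.9% of 9675 genes) and 3 lower in every pair (50.6%), so these counts stood near the shares of all genes. Suz12 was listed near 3 TSSs, where 0 genes were lower (5.76% of 2290 genes) and 2 were higher (32.1%). Median log2 ratios at the TSS were -0.55 for the receptor genes and -0.62 for all genes with H3K27me3, and 1.09 and 0.49 for Suz12. Over the wider window 4 genes had Suz12, 0 were lower (5.49% of 5370 genes) and 3 were higher (30.6%).

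**Figure D1:**
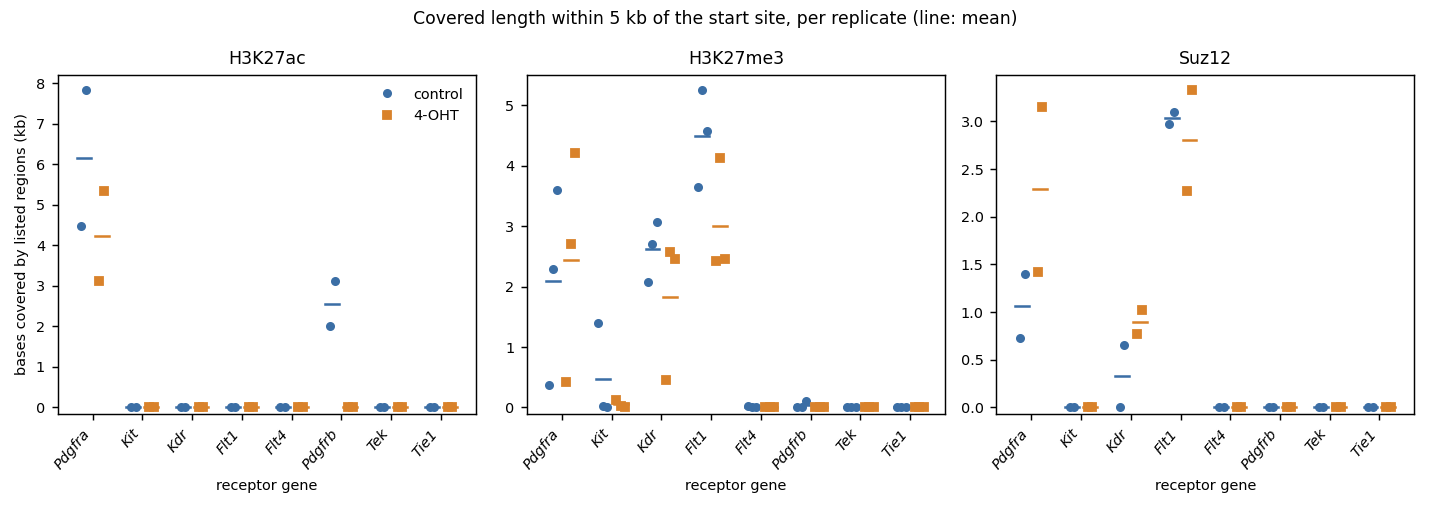
Bases covered by listed regions within 5 kb of each TSS (kb, vertical axis) for the 8 receptor genes, with a panel for H3K27ac, H3K27me3 and Suz12. Points are replicates (blue circles control, orange squares 4-OHT) and short lines are means. H3K27ac stood at *Pdgfra* and, in control only, at *Pdgfrb*, while H3K27me3 and Suz12 stood at *Pdgfra*, *Kdr* and *Flt1*.

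Regions that 2 or more of the 3 FLAG replicates shared by at least 1 bp were taken as Brg1-bound, which gave 2390 regions in the genome. Such regions lay within 5 kb of the TSS of 2 receptor genes (2.11% of 22380 genes) and within the gene body or 50 kb of 4 (12.4%), 7 regions in all. *Pdgfra* had 3, *Kdr* 2, *Flt1* 1 and *Pdgfrb* 1, and *Kit*, *Flt4*, *Tek* and *Tie1* had 0. All 7 came from FLAG replicates 1 and 2, so leaving out replicate 3 gave the same 7 and leaving out either of the others gave 0. Of the 7, 5 overlapped H3K27ac of both control replicates (71.0% of all Brg1-bound regions).

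*Pdgfra* (chr5:75548316-75594229, plus strand) had the widest H3K27ac at a start site among the receptor genes. Within 5 kb of the TSS, H3K27ac covered 4475 and 7825 bp in control replicates 1 and 2 and 3125 and 5350 bp in 4-OHT replicates 1 and 2. The mean was 6150 ± 2369 bp in control and 4238 ± 1573 bp after 4-OHT (SD, n = 2), and the replicates overlapped (exact permutation p = 0.667, log2 ratio -0.53). Both same-numbered pairs were lower. Without control replicate 1, or without 4-OHT replicate 2, the remaining replicates no longer overlapped. The mark formed 2 elements, where an element is a region called in both control replicates and merged. The wider lies at chr5:75543926-75549375 and spans the TSS, and covered 3950 and 5450 bp in control against 2250 and 4125 bp after 4-OHT. In the 50 kb before the TSS alone, the values were 3575 and 4690 bp in both controls, compared with 2075 and 3375 bp with 4-OHT, which did not overlap (p = 0.333, the smallest that the exact test allows).

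All 3 Brg1-bound regions of *Pdgfra* lay inside this upstream element, centred 2.44, 1.80 and 0.828 kb before the TSS (chr5:75545751-75546000, chr5:75546376-75546650 and chr5:75547426-75547550). The 300 bp around the centre of the nearest are shown because it was the only window of *Pdgfra* with a match to any of the motifs searched. They were the T-box motif AGGTGT, the GATA motif AGATAA, Fox TGTTTAC, Ets CCGGAA and AGGAAG, E-box CAGCTG and CATCTG, Foxh1 AATCCACA, Tcf CTTTGAT and Smad GTCTAGAC, each on both strands. Letters in capitals mark matches, and sequences are from the mm9 genome, plus strand, 5′ to 3′.
Pdgfra, chr5:75547338-75547637: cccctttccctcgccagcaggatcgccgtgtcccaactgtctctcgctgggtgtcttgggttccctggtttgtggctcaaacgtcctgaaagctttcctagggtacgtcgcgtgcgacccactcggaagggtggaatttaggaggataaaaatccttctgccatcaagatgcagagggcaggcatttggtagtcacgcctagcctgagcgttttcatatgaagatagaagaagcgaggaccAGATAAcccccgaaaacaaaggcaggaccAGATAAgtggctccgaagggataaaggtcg
The window holds AGATAA at positions 242 and 271 on the plus strand, counted from 1 at its left end. Of the 2390 Brg1-bound windows of the same length, 19.1% hold AGATAA at least once.

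At the TSS itself *Pdgfra* also carried the Polycomb marks. Suz12 covered 725 and 1400 bp within 5 kb of the *Pdgfra* TSS in control and 1425 and 3150 bp after 4-OHT, so both 4-OHT replicates lay above both controls (ratio 2.15, exact permutation p = 0.333). The log2 ratio was 1.09, and 0.42 without 4-OHT replicate 2. The highest control and the lowest 4-OHT replicate differed by a single 25-bp step of the lists. The main Suz12 region lies at chr5:75548151-75550650 over the TSS and the start of the gene and covered 725 and 1275 bp without 4-OHT, but 1400 and 2450 bp with it. With regions under 200 bp left out, or with the same number of widest regions from every replicate, *Pdgfra* was no longer higher. H3K27me3 covered 375, 2300 and 3600 bp in control replicates 1 to 3 and 425, 2700 and 4210 bp in 4-OHT replicates 1 to 3. It was higher in all 3 same-numbered pairs, while the groups overlapped almost fully (exact permutation p = 0.7, 0.25 for the pairs, the smallest that 3 pairs allow).

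*Kdr* (chr5:76328852-76374483, minus strand) had no H3K27ac within 5 kb of its TSS in any replicate of either condition. Its H3K27ac lay at a distance. Over the gene body and 50 kb on each side, the mark covered 8450 and 15150 bp in the controls against 2625 and 4325 bp with 4-OHT. Means were 11800 ± 4738 and 3475 ± 1202 bp (SD, n = 2), a ratio of 0.294, and the replicates did not overlap (exact permutation p = 0.333). The log2 ratio was -1.76 from all replicates and between -1.28 and -2.16 with any of them left out.

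**Figure D2:**
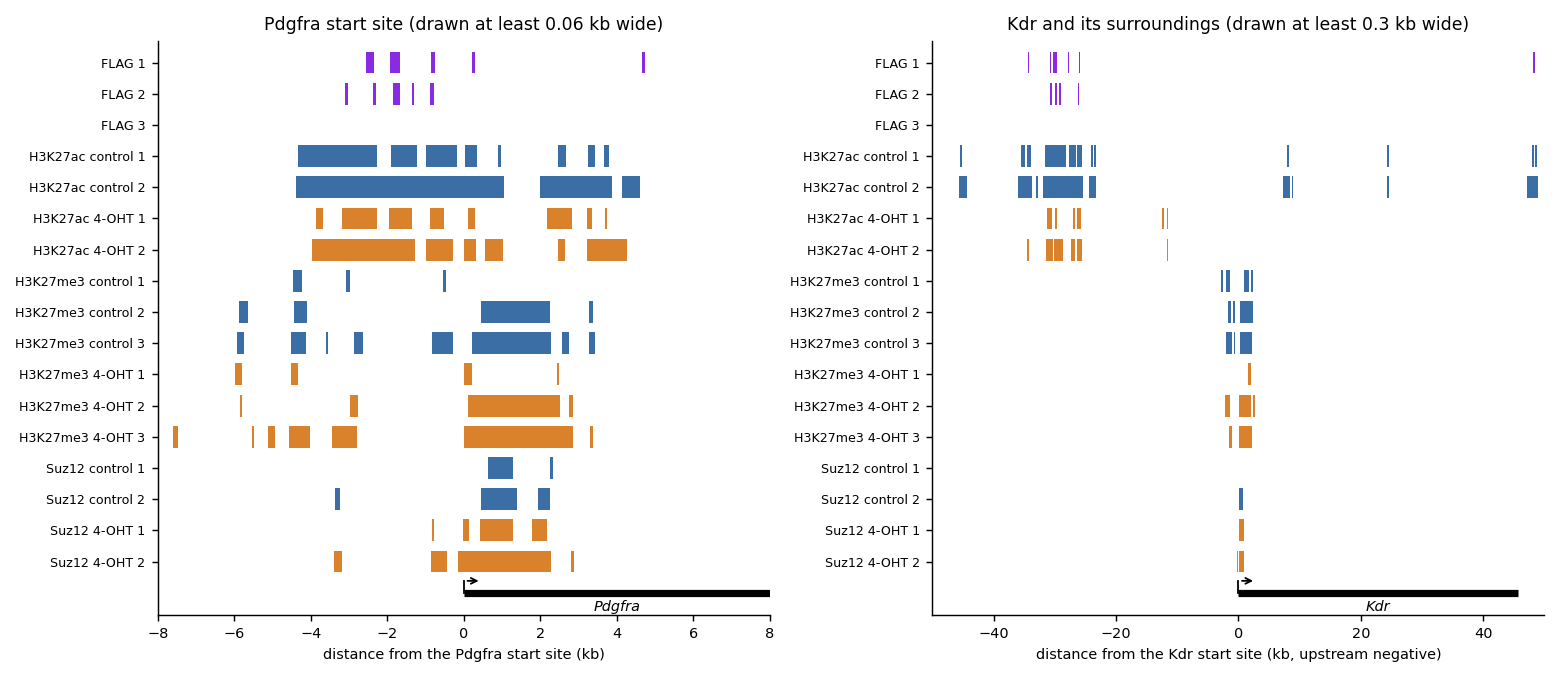
Listed regions in each replicate around the *Pdgfra* TSS (left) and *Kdr* (right), with the distance from the TSS in kb on the horizontal axis and upstream negative. Purple is FLAG, blue control and orange 4-OHT, and black bars with arrows are the genes. FLAG regions shared by replicates 1 and 2 fall 2.44 to 0.828 kb before *Pdgfra* and 29.8 and 30.6 kb before *Kdr*, inside H3K27ac, further regions belong to a single replicate, and most of the smaller control H3K27ac regions around *Kdr* have no counterpart after 4-OHT.

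Around *Kdr* there were 7 H3K27ac elements, and in all 7 both 4-OHT replicates lay below both controls (41.0% of 27332 elements in the genome). Of these, 5 had no region in either 4-OHT replicate. Inside the gene, an intronic element at chr5:76366076-76367275, 7.81 kb past the TSS, covered 425 and 1200 bp in control and 0 bp after 4-OHT. A narrow intronic element at chr5:76349876-76350250, 24.4 kb past the TSS, covered 200 and 375 bp in control. Beyond the 3′ end, the element at chr5:76325501-76327300 covered 600 and 1800 bp in control. Upstream, elements at chr5:76397676-76398900 (23.8 kb before the TSS) and chr5:76418776-76420075 (44.9 kb before it) covered 425 and 1225 bp and 150 and 1300 bp in control. All of these were 0 bp in both 4-OHT replicates. An element 34.8 kb before the TSS, at chr5:76408151-76410450, was intermediate, with 1325 and 2300 bp in both controls, compared with 0 and 275 bp with 4-OHT.

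The broadest element of *Kdr*, chr5:76399801-76406425, is centred 28.6 kb before its TSS in intergenic sequence that also carries an annotated 5S_rRNA gene. It covered 5325 and 6625 bp without 4-OHT, but 2100 and 3800 bp with it (ratio 0.494, exact permutation p = 0.333). Both Brg1-bound regions of *Kdr* lay in it, at chr5:76404176-76404475 and chr5:76404876-76405350, 29.8 and 30.6 kb before the TSS. FLAG replicates 1 and 2 listed 5 further regions in the same element in a single replicate each. The 300 bp around the centres of both bound regions are given, since this element held the widest H3K27ac of the 926-kb locus.
Kdr, chr5:76404176-76404475: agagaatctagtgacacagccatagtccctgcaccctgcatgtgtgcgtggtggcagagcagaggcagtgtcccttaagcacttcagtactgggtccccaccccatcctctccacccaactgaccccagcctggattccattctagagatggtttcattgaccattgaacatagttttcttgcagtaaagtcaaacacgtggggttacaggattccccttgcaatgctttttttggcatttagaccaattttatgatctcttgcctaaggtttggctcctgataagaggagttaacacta
Kdr, chr5:76404963-76405262: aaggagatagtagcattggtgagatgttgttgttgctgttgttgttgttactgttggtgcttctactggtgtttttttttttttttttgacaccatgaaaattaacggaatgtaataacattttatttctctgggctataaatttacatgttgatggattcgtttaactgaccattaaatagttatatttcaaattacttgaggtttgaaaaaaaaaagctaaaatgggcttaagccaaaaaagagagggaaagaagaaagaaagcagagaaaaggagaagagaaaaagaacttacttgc
Neither window holds any of the motif strings, and their GC contents were 47.7% and 31.7%. That says only that these letters are not in these windows.

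H3K27ac was also listed where the control had none. A region at chr5:76385951-76386225, 11.6 kb before the *Kdr* TSS, covered 275 and 250 bp in the 4-OHT replicates and 0 bp in both controls.

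At the *Kdr* TSS, H3K27me3 covered 2075, 2700 and 3075 bp in control replicates 1 to 3 and 450, 2575 and 2450 bp in 4-OHT replicates 1 to 3. Every same-numbered pair was lower, and the groups overlapped (exact permutation p = 0.4, 0.25 for pairs). The log2 ratio was -0.51, but -0.18 as a share of all bases each list covers and -0.06 without 4-OHT replicate 1. Means were 2617 ± 505 bp and 1825 ± 1192 bp (SD, n = 3). The difference lay upstream of the TSS, where 1125, 625 and 1125 bp in control stood against 0, 575 and 375 bp after 4-OHT, and these did not overlap (p = 0.1, the smallest that the exact test allows). Within the gene body the values were close, with means of 1658 ± 617 and 1508 ± 917 bp. The upstream stretch is 1 of 12 combinations of a stretch and a mark compared at the locus, and its p was not adjusted. Suz12 differed in the opposite direction, with 0 and 650 bp in control against 775 and 1025 bp after 4-OHT, so both 4-OHT replicates lay above both controls (exact permutation p = 0.333). Without control replicate 2 no Suz12 remained in control.

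The locus as a whole runs from 50 kb before *Pdgfra* to 50 kb before *Kdr* (chr5:75498316-76424483). H3K27ac covered 13675 and 23950 bp of it in control and 6125 and 10100 bp after 4-OHT, a ratio of 0.431 without overlap (exact permutation p = 0.333). H3K27me3 covered 3975, 5275 and 6875 bp in the controls against 1200, 5325 and 6975 bp with 4-OHT, which overlapped (exact permutation p = 0.9). Suz12 covered 725 and 2050 bp in the controls against 2200 and 4175 bp with 4-OHT, higher in both replicates (p = 0.333 by the same exact test). Of the 11 H3K27ac elements in the locus, 9 were lower in both 4-OHT replicates (41.0% of 27332 elements in the genome, promoter and distal pooled). The exceptions were both elements at the *Pdgfra* TSS. From both 4-OHT replicates 6 were missing (33.1% of 13914 distal elements in the genome and 6.04% of 13418 within 2.5 kb of a TSS). The locus held 6 Brg1-bound regions, all 6 in H3K27ac of both control replicates, and 17 regions listed by a single FLAG replicate.

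**Figure D3:**
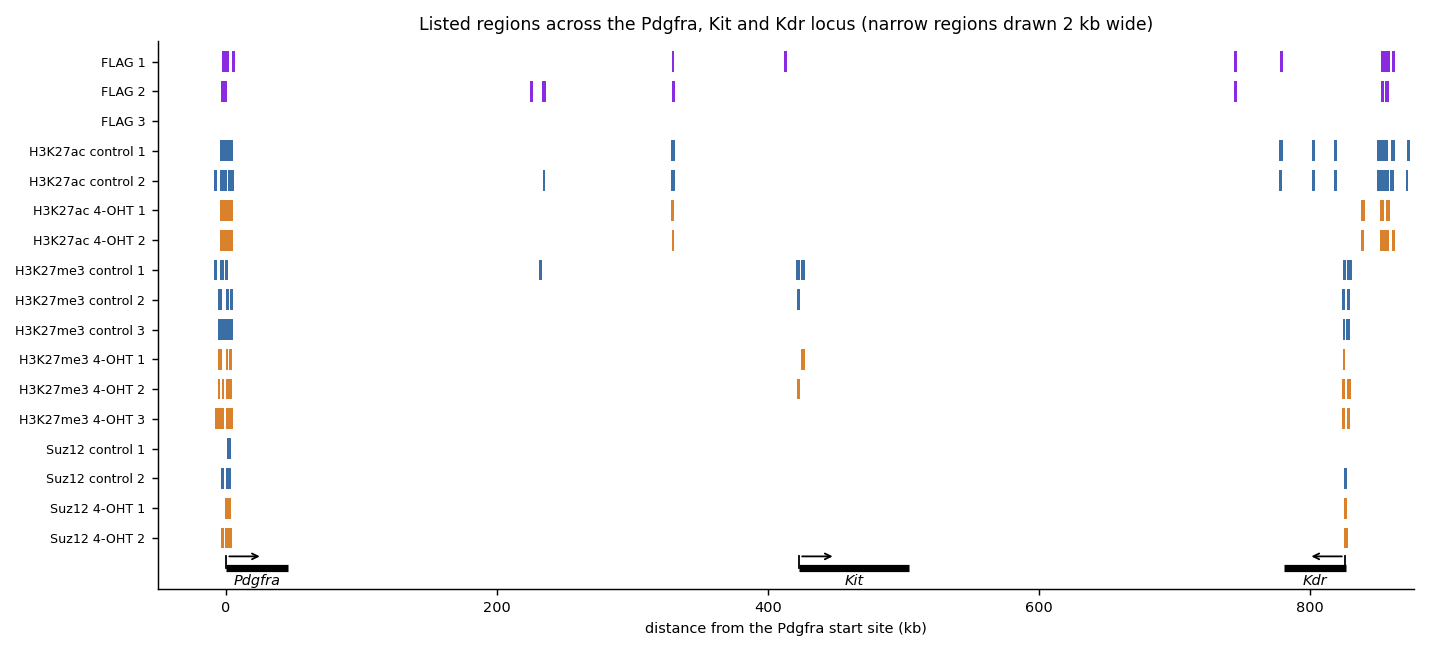
Listed regions of all 17 replicates across the locus, with the distance from the *Pdgfra* TSS in kb on the horizontal axis. Purple is FLAG, blue control and orange 4-OHT, and narrow regions are drawn 2 kb wide. Marks cluster at the *Pdgfra* TSS, at the *Kdr* TSS and 30 kb beyond it, while *Kit* and the stretches on both sides of it are almost empty.

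Between *Pdgfra* and *Kit*, 377 kb apart, the lists held little besides a pair of neighbouring H3K27ac elements. The larger, chr5:75877101-75877675, covered 550 and 575 bp in both controls, compared with 375 and 425 bp with 4-OHT. It held the sixth Brg1-bound region of the locus, chr5:75877376-75877650, 93.4 kb before *Kit* and 329 kb past the *Pdgfra* TSS. Its neighbour, chr5:75878026-75878225, covered 200 and 50 bp in control and 0 bp after 4-OHT. The 300 bp around the bound region are shown as the only bound sequence between the 3 genes.
Between Pdgfra and Kit, chr5:75877363-75877662: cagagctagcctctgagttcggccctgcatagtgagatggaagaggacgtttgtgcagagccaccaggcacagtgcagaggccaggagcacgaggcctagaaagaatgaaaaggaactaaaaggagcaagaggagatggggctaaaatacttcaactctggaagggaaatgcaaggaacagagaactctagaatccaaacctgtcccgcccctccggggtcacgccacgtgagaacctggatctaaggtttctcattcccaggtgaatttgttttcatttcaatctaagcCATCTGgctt
The E-box string CATCTG was found at position 291, as in 21.4% of all Brg1-bound windows.

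*Kit* (chr5:75970941-76052747, plus strand) had no H3K27ac and no Suz12 in any replicate, in its body or within 50 kb. H3K27me3 within 5 kb of its TSS covered 1400, 25 and 0 bp in control replicates 1 to 3 and 125, 25 and 0 bp in 4-OHT replicates 1 to 3. Nearly all of it came from control replicate 1, the list with the most H3K27me3 regions. Without that replicate the log2 ratio changed from -2.74 to 1.00, on values of at most 125 bp.

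*Flt1* (chr5:148373180-148537587, minus strand), the decoy-like receptor that binds VEGF with high affinity, had the widest H3K27me3 and Suz12 at a TSS among the receptor genes. H3K27me3 covered 3650, 5250 and 4575 bp in control replicates 1 to 3 and 2425, 4125 and 2450 bp in 4-OHT replicates 1 to 3. All 3 pairs were lower, with overlap between the groups (exact permutation p = 0.2, 0.25 for pairs, log2 ratio -0.58). As a share of all bases each list covers, the log2 ratio was -0.08, since the whole 4-OHT lists covered less. Suz12 covered 2975 and 3100 bp without 4-OHT, but 2275 and 3325 bp with it, with overlap (exact permutation p = 1). No H3K27ac was listed at the TSS.

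The Brg1-bound region of *Flt1* lies in an intron 2.81 kb past the TSS, at chr5:148534651-148534900. Unlike the bound regions at *Pdgfra* and *Kdr*, it lay outside H3K27ac in both controls. It overlapped H3K27me3 in 2 of 3 controls.

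H3K27ac around *Flt1* was sparse and distal. Over the body and 50 kb on each side it covered 1525 and 1700 bp in the controls against 1375 and 350 bp with 4-OHT, lower in both replicates (ratio 0.535, exact permutation p = 0.333). The value after 4-OHT depended on the replicate, with a log2 ratio of -0.88 from both, -2.13 without 4-OHT replicate 1 and -0.23 without 4-OHT replicate 2. The wider of its 2 elements, chr5:148572301-148573825, is 35.5 kb before the TSS and covered 1400 and 1350 bp in both controls, compared with 1225 and 350 bp with 4-OHT. The other, 142 kb past the TSS in an intron, covered 125 and 350 bp in control and 0 bp after 4-OHT.

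*Pdgfrb* (chr18:61204804-61244715, plus strand) was the only receptor gene whose TSS H3K27ac was lower by the rule. Within 5 kb of the TSS, H3K27ac covered 2000 and 3125 bp in control and 0 bp in both 4-OHT replicates (mean 2563 ± 795 bp in control, SD, n = 2, exact permutation p = 0.333). It formed a single element, chr18:61204851-61207975, which begins just past the TSS and overlaps coding exons. Its Brg1-bound region lies outside this element at chr18:61199326-61199550, 5.37 kb before the TSS. It overlapped an H3K27ac region of control replicate 2 alone, whose nearest TSS is that of *Cdx1*, 3.5 kb away. Inside the element, FLAG replicate 1 alone listed a region. Over the body and 50 kb on each side, H3K27ac covered 2325 and 3425 bp without 4-OHT, but 1425 and 0 bp with it. All of the 1425 bp in 4-OHT replicate 1 lay 44.4 kb or more past the TSS, beyond the end of the gene and partly in the neighbouring *Csf1r*. With regions within 1 kb joined, *Pdgfrb* was no longer lower over this wide window.

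H3K27me3 within 5 kb of the *Pdgfrb* TSS was limited to 100 bp in control replicate 3, and Suz12 was not listed. The H3K27me3 and Suz12 counted within 50 kb of it lay mostly at *Slc6a7* and *Cdx1*. Suz12 there covered 1262.5 ± 88.4 bp in control and 1787.5 ± 124 bp after 4-OHT (SD, n = 2), higher in both replicates (exact permutation p = 0.333).

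*Flt4* (chr11:49422765-49466241, plus strand), the receptor of lymphatic endothelium, had no Suz12, no Brg1-bound region and no control H3K27ac in its body or within 50 kb. H3K27me3 in the gene body covered 375, 150 and 875 bp in control replicates 1 to 3 and 150, 50 and 0 bp in 4-OHT replicates 1 to 3. All pairs were lower with overlap between the groups (exact permutation p = 0.2, 0.25 for pairs). The regions were narrow and few were shared between replicates.

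*Tek* (chr4:94405980-94541667, plus strand) had no region of any mark in any of the 17 lists, in its body or within 50 kb. *Tie1* (chr4:118143796-118162666, minus strand) had none at its TSS or in its body. The H3K27ac within 50 kb of *Tie1*, 4700 and 6475 bp in the controls against 5325 and 5700 bp with 4-OHT, lay mostly at the promoters of *Elovl1* and *Cdc20*. Both of those elements were listed in all 4 replicates and overlapped between conditions. The 3 distal elements in the window, 25 to 1200 bp per control replicate, were missing after 4-OHT, and the widest of them lies 3.35 kb from the *Elovl1* TSS.

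The elements of all receptor genes can be set side by side. Of 17 H3K27ac elements, 13 were lower in both 4-OHT replicates (41.0% of 27332 elements in the genome, promoter and distal pooled), and 10 were missing from both. Elements were defined by both control replicates, so regions listed only after 4-OHT, such as that 11.6 kb before *Kdr*, could not enter these counts. Promoter elements, within 2.5 kb of any annotated TSS (the wide *Kdr* element counts among them through its 5S_rRNA gene), were missing in 1 of 6 cases (6.04% of 13418 in the genome). Distal elements were missing in 9 of 11, or 81.8% (33.1% of 13914 in the genome). Since narrow regions are more easily lost from a list, distal elements at least 1 kb wide were counted too, a width chosen after the values were seen. Of these, 5 of 7 were missing, or 71.4% (16.9% of 5165). Elements of a gene are not replicates, 6 of the 11 distal ones belong to *Kdr*, and no test was made on these shares. Both elements with a Brg1-bound region stayed listed in both 4-OHT replicates, and none of the 10 missing elements held a Brg1-bound region, although 3 of the 10 held a region of a single FLAG replicate. That contrast rests on 2 elements and on the rule of 2 FLAG replicates. These 2 were also the widest of the 17 (6625 and 5450 bp), and the widest missing element was 3125 bp. Width and Brg1 binding therefore cannot be told apart here. The bound element of *Kdr* stayed listed but was lower in both 4-OHT replicates (ratio 0.494).

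**Figure D4:**
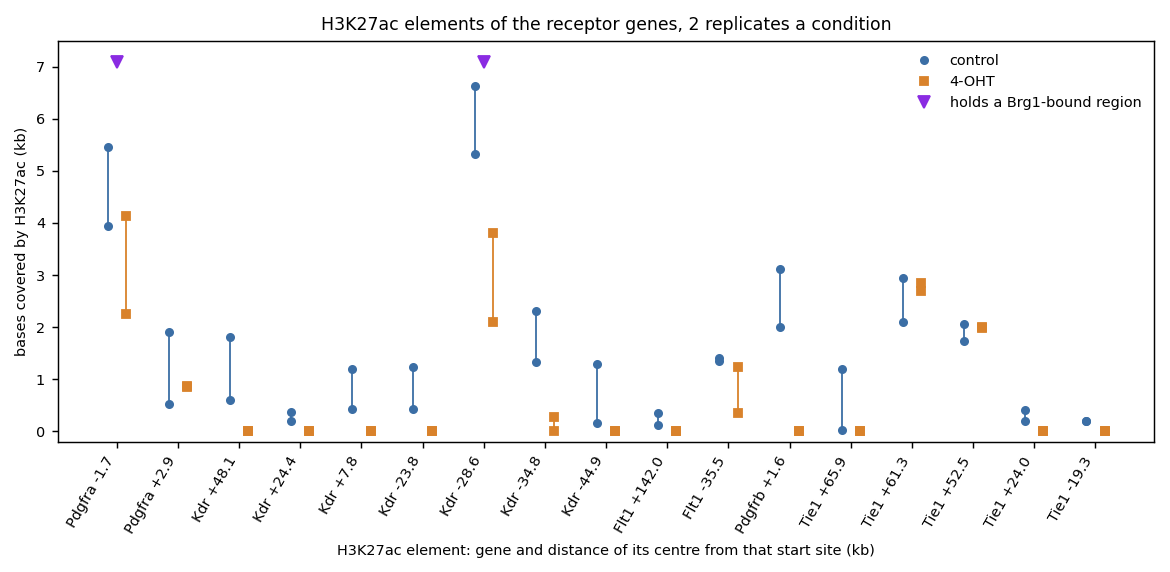
Bases covered by H3K27ac (kb, vertical axis) in each of the 17 elements of the receptor genes, named by gene and by distance of the element's centre from that TSS in kb. Blue circles are the 2 control replicates and orange squares the 2 4-OHT replicates, joined by lines, and purple triangles mark elements that hold a Brg1-bound region. The 4-OHT squares are at 0 for 10 elements, and both marked elements remain above 2 kb.

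Start sites differed in sequence as well as in marks. In the 1000 bp centred on the TSS, the ratio of observed to expected CpG was 0.813 at *Flt1*, 0.807 at *Flt4*, 0.676 at *Kit* and 0.656 at *Kdr*. It was 0.419 at *Pdgfra*, 0.394 at *Pdgfrb*, 0.33 at *Tie1* and 0.318 at *Tek*, and the median of 22371 protein-coding genes was 0.549. Thus both genes with H3K27ac at the TSS lay below the median, and *Tek* and *Tie1*, without any mark there, lay lower still. Among the CpG-rich start sites, *Kdr* and *Flt1* carried H3K27me3 and Suz12, *Kit* carried little and *Flt4* nearly none. *Pdgfra*, below the median, carried both as well, with more control Suz12 (725 and 1400 bp) than *Kdr* (0 and 650 bp). The 250 bp before 4 of the TSSs show the range, with each CG in capitals, on the gene's own strand.
Flt1, chr5:148537588-148537837, minus strand: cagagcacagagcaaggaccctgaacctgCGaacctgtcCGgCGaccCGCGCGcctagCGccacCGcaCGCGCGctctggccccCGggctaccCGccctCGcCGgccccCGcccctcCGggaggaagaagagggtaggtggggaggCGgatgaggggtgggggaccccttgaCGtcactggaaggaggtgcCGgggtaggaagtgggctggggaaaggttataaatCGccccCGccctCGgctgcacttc
Kdr, chr5:76374484-76374733, minus strand: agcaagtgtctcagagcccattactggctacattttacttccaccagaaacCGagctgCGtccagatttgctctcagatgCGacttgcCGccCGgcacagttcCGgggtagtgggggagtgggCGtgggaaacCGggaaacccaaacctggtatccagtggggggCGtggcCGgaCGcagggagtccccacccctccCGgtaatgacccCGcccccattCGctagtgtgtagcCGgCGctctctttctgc
Pdgfra, chr5:75548066-75548315, plus strand: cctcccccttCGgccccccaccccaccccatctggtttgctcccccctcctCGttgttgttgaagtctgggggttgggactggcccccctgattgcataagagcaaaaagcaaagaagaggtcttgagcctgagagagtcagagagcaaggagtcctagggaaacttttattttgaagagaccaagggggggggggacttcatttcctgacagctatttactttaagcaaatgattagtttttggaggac
Tek, chr4:94405730-94405979, plus strand: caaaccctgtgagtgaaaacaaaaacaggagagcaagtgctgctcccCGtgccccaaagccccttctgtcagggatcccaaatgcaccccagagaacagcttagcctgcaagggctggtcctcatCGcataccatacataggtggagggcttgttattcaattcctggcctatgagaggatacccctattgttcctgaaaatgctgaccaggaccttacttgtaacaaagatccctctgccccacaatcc
These stretches hold 23, 16, 2 and 2 CG dinucleotides.

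The ligands, partners and regulators of the receptors were counted on the same rule at their TSSs, from a list of 40 genes. H3K27ac was listed at 27, of which 9 were lower and 6 higher (12.6% and 39.8% of all genes with the mark), and their median log2 ratio was -0.05 against 0.15 over all genes with the mark. H3K27me3 was listed at 21, of which 1 was lower (12% of all), and Suz12 at 16, of which 5 were higher and 1 lower (32.1% and 5.76% of all), so the Suz12 counts stood near those shares. Among 13 ligands, H3K27ac was listed at 9, of which 2 were lower and 1 higher. Among 10 signal relay genes and brakes it was listed at all 10, of which 3 were lower and 4 higher. Of 12 transcription factors that regulate the receptor genes, 5 had H3K27ac, of which 2 were lower and 1 higher. H3K27me3 was listed at 10 of the 12 (18.8% of all protein-coding genes) and Suz12 at 9 (10.2%).

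A Brg1-bound region lay within 5 kb of the TSS of 2 listed genes, the co-receptors of VEGF and semaphorins *Nrp1* and *Nrp2*. At *Nrp1*, H3K27ac covered 2350 and 3650 bp in both controls, compared with 250 and 1525 bp with 4-OHT. At *Nrp2* it covered 1234 and 1734 bp without 4-OHT, but 1184 and 1134 bp with it. Both were thus lower for H3K27ac, and both were higher for Suz12. *Nrp1* had no control Suz12 and 650 and 2225 bp after 4-OHT, and *Nrp2* had 100 and 1400 bp in control against 1750 and 3625 bp. Log2 ratios against 0 bp in either condition depend on the pseudocount of 25 bp and only rank the genes. The 3 lowest log2 ratios of H3K27ac in the list were those of *Fli1* (-3.64), an Ets factor of endothelium and blood, *Angpt2* (-3.60), a ligand of Tek, and *Lmo2* (-2.91), a partner of blood and endothelial factors. *Fli1* covered 175 and 400 bp in control and 0 bp after 4-OHT, and *Angpt2* 625 and 1150 bp against 100 and 0 bp, both without overlap. *Lmo2* rested on 325 bp in a single control replicate. The 3 highest were those of *Gata4* (3.09), a GATA factor of heart and endoderm, *Csf1r* (2.44), the receptor of macrophages, and *Pgf* (1.32), a ligand of Flt1. Of these, *Gata4* was higher in both replicates, with 0 bp in the controls against 250 and 125 bp with 4-OHT, while *Csf1r* and *Pgf* overlapped.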

How the data were processed

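ChIP-seq region lists of 17 samples were used. The authors aligned reads to mm9 with Bowtie (per the processing notes, version not given) and called regions over input with a Poissonian model in each replicate, at a threshold of 1e-06 and at least 2-fold over input for FLAG and of 1e-12 for the others. The deposited lists give a start and an end in bp, with edges in 25-bp steps, and no counts or scores, so depth is unknown and no count model was used. The 11 input samples were not used.

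Covered bases were summed within 5 kb of the TSS, over the gene body, and over the body with 50 kb on each side, for every protein-coding record of GENCODE vM1 on mm9. Log2 ratios used a pseudocount of 25 bp. Conditions were compared by 2-sided exact permutation tests, or sign-flip tests of pairs, in Python 3.11.15 with NumPy 2.4.6 and SciPy 1.17.1, and figures used Matplotlib 3.10.9. The calculations were tested on simulated regions. Labels call the replicates biological. Whether numbers pair them was checked by correlating deviations from condition means over genes at the TSS. For H3K27me3 the same-number correlations were 0.548, 0.405 and 0.341, and the different-number ones ran from -0.425 to 0.218. These replicates were therefore also compared as pairs, as judged from the lists alone. Both replicate 1 lists also had narrow regions (median width 250 bp), and such a shared list character cannot be told apart from pairing here.

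All 8 receptor genes are named. Elements are described where they held a Brg1-bound region, were the widest of a gene or were missing at the locus. Listed pathway genes are named where Brg1-bound at the TSS or among the 3 lowest or 3 highest H3K27ac ratios. Genes and lists were chosen with earlier results of these data known. Marker lists covered mesoderm, pluripotency, neural, endoderm, endothelium, blood, cardiomyocyte and mural cells. H3K27ac was listed in every control replicate at 2 of 4 blood, 1 of 3 endoderm, 1 of 3 cardiomyocyte and 1 of 3 mural markers. Some bound and promoter sequences are not reported here. Alternatives were other windows, widths, scalings, joins and replicates left out.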

Additional observations from a re-analysis of the deposited data

How the results depend on the processing

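Of 224 recomputed log2 ratios of 27 gene, window and mark combinations, 206 moved by less than the replicate SD and 18 by more. No ratio of a gene called lower or higher changed sign, but 15 alternatives of 8 uncalled ratios did (H3K27me3 of *Kit*, *Pdgfra* and *Pdgfrb*, Suz12 of *Flt1*, H3K27ac of *Tie1*). H3K27ac near the TSS was lower at 2 genes with a 10-kb half-width (*Kdr* added), at 2 under the replicate block (*Pdgfra* added), and at 1 to 2 with each replicate left out. Over the wide window it was lower at 3 to 5 genes with a replicate left out, and *Kdr* and *Flt1* were lower in every alternative except the count of regions, which gave *Kdr* and *Tie1*. Without control replicate 1 there were 5 genes, with *Pdgfra* and *Tie1* added.

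H3K27me3 near the TSS was lower at 1 gene with regions joined within 1 kb (*Flt1*), at 2 under the replicate block and at 0 to 2 with a replicate left out, the 2 (*Kdr* and *Flt1*) without control replicate 1. Over the wide window it was lower at 1 gene with regions joined, at 2 by the count of regions, at 3 under the replicate block and at 0 to 2 with a replicate left out. Suz12 was lower at 1 gene (*Flt1*) in both windows as a share of all listed bases, and at 0 to 1 with a replicate left out. The block changed no Suz12 count. Same-number correlations were 0.249 for H3K27ac and 0.0363 for Suz12. With 2 pairs each, the different-number correlations are the same values with the sign reversed (-0.249 and -0.0363). Whether those replicates are paired was therefore not settled, and the main calls did not use pairs.

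Brg1-bound regions near the receptor genes numbered 27 when listed in any 1 replicate, 0 in all 3, and 0 to 7 with a replicate left out. Elements with a Brg1-bound region numbered 8 with any 1 FLAG replicate, an alternative added after seeing the data, and 3 to 4 with a control replicate left out. Missing elements numbered 16 of 26 when called in either control. They numbered 14 of 24 without control replicate 1 and 16 of 33 without control replicate 2. Without 4-OHT replicate 1 they were 10 of 17, and without 4-OHT replicate 2 they were 11 of 17. The cause of these changes was not tested. Lists without depth limit all of this: a region that is absent may lie just under the threshold.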

Other observations

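*Pdgfra*, *Nrp1* and *Nrp2* were Brg1-bound near the TSS, covered fewer H3K27ac bases on average after 4-OHT and had more Suz12 in both 4-OHT replicates. At *Pdgfra* the H3K27ac replicates overlapped, and the Suz12 call rested on a single 25-bp step. The *Nrp2* H3K27ac call rested on 1234 bp in the lowest control against 1184 bp in the highest 4-OHT replicate. Of the marker genes Brg1-bound near the TSS, *T* had lower H3K27ac and more Suz12. That Suz12 call also rested on a single 25-bp step (0 and 0 bp in control, 25 and 250 bp after 4-OHT). *Mesp1* and *Cer1* had lower H3K27ac and no Suz12, and *Tbx6* and *Lhx1* overlapped for H3K27ac. *Flt1*, also Brg1-bound near the TSS, had no H3K27ac there, and its Suz12 overlapped between conditions (means of 3037.5 and 2800 bp). Over all protein-coding genes with a Brg1-bound region there, H3K27ac was lower at 150 of 443 (33.9%) and Suz12 was higher at 27 of 75 (36%). Genes without a Brg1-bound region had lower H3K27ac at 1361 of 11588 (11.7%) and higher Suz12 at 708 of 2215 (32%). The Suz12 shares were close to each other. All of these shares come from the same replicates and were not tested.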
